A study of Arabidopsis thaliana with 6 samples.

Results

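The CBF cold regulon was followed through 9 of the 22746 probe sets of an Affymetrix Arabidopsis array. They comprise 3 probe sets for the CBF1, CBF2 and CBF3 transcription factor genes and 6 for cold-regulated genes that these factors activate, namely COR15A, COR15B, KIN1 with KIN2, COR47, ERD10 and RD29A. The probe sets were listed by name as textbook members of the regulon; the list sets no threshold on their signals, but it was drawn up with earlier results of these arrays known. RNA came from leaves of Arabidopsis thaliana, ecotype Col0, either without a transgene (3 arrays) or expressing the transgene AmGSTF1 (3 arrays), a glutathione transferase of a grass weed studied for its part in resistance to several herbicides. In both groups seeds had been chilled at 4 °C for 72 hours, plants grew at 20 °C under 16-hour days, and 10 leaves per replicate were then left floating on 0.1% Tween 20 with 0.1% acetone, frozen after 4 hours. The labels give no cold treatment of the plants, and they give no temperature for the 4 hours of floating. The comparison therefore concerns the level of the regulon in detached, floated leaves, and whether it was already induced in both groups was not tested. The promoter that drives the transgene, the number of transgenic lines, the age of the plants and their number per replicate are not given in the sources used here.

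CBF proteins, also called DREB1 proteins, are transcription factors of the AP2/ERF family that bind the C-repeat or dehydration-responsive element. Their genes are induced within minutes to hours of chilling, under the control of the ICE1 and CAMTA factors and gated by the circadian clock. The genes they activate encode hydrophilic proteins that protect membranes and enzymes when cells freeze and lose water, and several of these genes also answer to abscisic acid and drought through other factors.

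The members sit in 4 groups of neighbours and 1 single gene. By RefSeq's genes of TAIR10.1, the CBF genes lie side by side on chromosome 4 in the order CBF2, CBF3 (listed as DREB1A) and CBF1. COR15B and COR15A are adjacent on chromosome 2, KIN1 and KIN2 on chromosome 5, and COR47 and ERD10 on chromosome 1. The platform annotation names the probe sets of COR15A, COR15B and COR47, gives KIN1 and KIN2 together for 246481_s_at, and does not list the other 5. ERD10 and RD29A are therefore names taken from the member list. The 3 CBF probe sets, 254066_at, 254074_at and 254075_at, are given by probe set here, because which of the 3 neighbouring CBF genes each one measures could not be checked. The KIN1 and KIN2 transcripts cannot be told apart on this array.

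The arrays shared 1 scale, with a trimmed mean signal of 495.7 to 496.2 and a median signal of 146 to 164. The leaf label could be checked with 1 of 6 listed mesophyll markers, the rubisco activase gene RCA, which had signals of 15370 to 22829. PYK10, a root marker, had signals of 38.5 to 173. Of the flower, seed, phloem and epidermis markers, 0 could be matched to a probe set that the annotation assigns to 1 gene. The guard cell regulator FAMA was at 107 to 127 in Col0 and 60.0 to 96.3 in AmGSTF1 without being called (log2 difference -0.55, 95% interval -1.09 to -0.02, limma adjusted p = 0.201). The part of tissue composition in the results below was not tested further, and in whole leaves fewer cells of a type and less RNA per cell cannot be told apart.

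None of the CBF regulon members passed the test for a difference between AmGSTF1 and Col0 leaves. With limma over all probe sets, 0 of the 8 members that were bright enough to be tested had a Benjamini-Hochberg adjusted p under 0.05 (0 higher, 0 lower), while 5.04% of the 13647 probe sets tested did, 2.14% higher and 2.9% lower in AmGSTF1. At an unadjusted p under 0.05, 2 members were higher in AmGSTF1 (254075_at and COR47) and 0 were lower; of all probe sets tested, 12.6% were higher and 10.7% lower by that criterion. The estimated difference, AmGSTF1 minus Col0 on the log2(signal + 16) scale, was above 0 in 6 of the 9 members and below 0 in 3, against 55.9% above 0 over the probe sets tested. The median difference of the 9 members was 0.11, beside 0.03 over all 22746 probe sets.

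**Figure D1:**
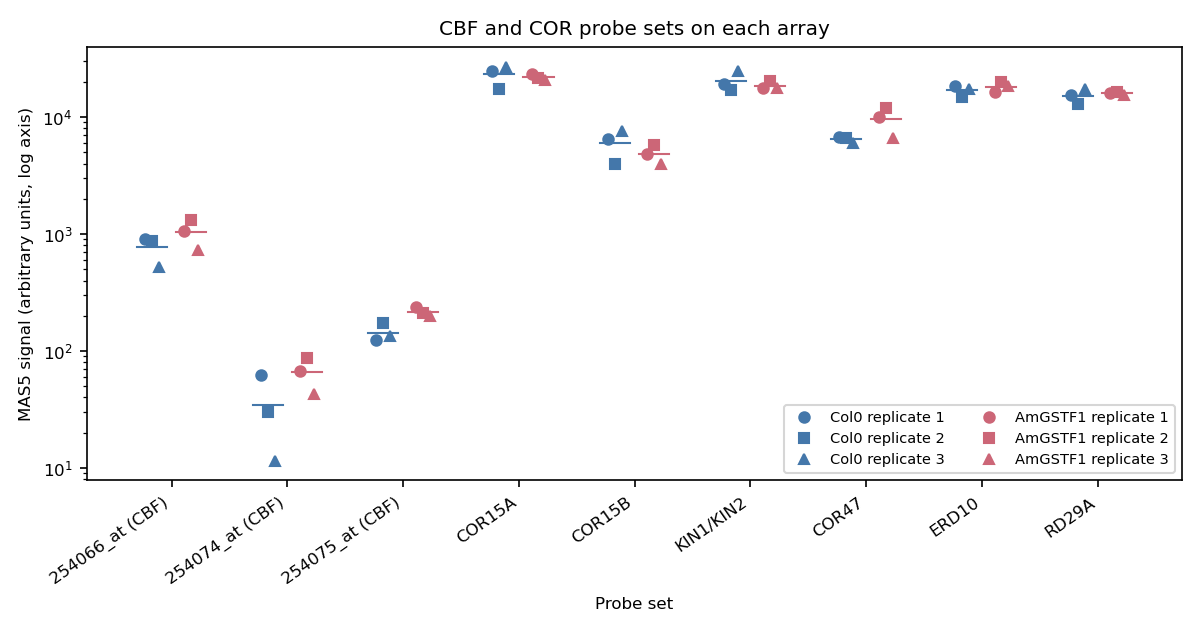
MAS5 signal (log axis) of the 9 CBF regulon probe sets on each of the 6 arrays, with circles, squares and triangles for replicates 1, 2 and 3 and a line at each group mean. For 254075_at the AmGSTF1 points (198 to 235) lie above the Col0 points (124 to 173), and for the other 8 probe sets the groups overlap; heights of different probe sets are not comparable amounts of transcript.

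The 3 CBF probe sets, which stand for the transcription factors at the head of the regulon, all had higher mean signals in AmGSTF1 leaves, and none was called. Probe set 254075_at had signals of 124, 173 and 133 on Col0 arrays 1 to 3 and of 235, 211 and 198 on AmGSTF1 arrays 1 to 3. Every AmGSTF1 array was above every Col0 array. The log2 difference was 0.54 (95% interval 0.12 to 0.97), a 1.46-fold difference, with a limma adjusted p of 0.127. It was the single member whose groups did not overlap, 1 of 9, while 14.5% of all probe sets tested were separated with AmGSTF1 above Col0 and 13.1% with AmGSTF1 below.

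Probe set 254066_at had signals of 915, 869 and 518 in Col0 and of 1062, 1316 and 732 in AmGSTF1. The groups overlapped, since the third AmGSTF1 array lay below the first and the second Col0 arrays, and in both groups replicate 3 was the lowest. The log2 difference was 0.43 (95% interval -0.15 to 1.01, limma adjusted p = 0.357). Probe set 254074_at was dim, with signals of 62.4, 30.2 and 11.5 in Col0 and of 67.4, 86.9 and 42.5 in AmGSTF1, and it fell under the filter that removed the dimmest 40% of probe sets. On the 6 arrays that share of probe sets lay below signals of 68.7 to 84.5. Again replicate 3 was the lowest array in both groups. Fitted with no filter, its log2 difference was 0.78 (95% interval -0.22 to 1.77), with an adjusted p of 0.436, in a limma fit that called 1.48% of 22746 probe sets.

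Among the targets, COR47 had the largest difference. COR47 encodes an acidic dehydrin, a hydrophilic protein that accumulates on chilling and drying. Its signals were 6722, 6680 and 5986 in Col0 and 9992, 12048 and 6686 in AmGSTF1. AmGSTF1 replicates 1 and 2 stood above all Col0 arrays, and AmGSTF1 replicate 3 lay between the Col0 values. The log2 difference was 0.53 (95% interval 0.08 to 0.97), or 1.44-fold, with a limma adjusted p of 0.149. COR47 passed the threshold in 1 alternative alone, without AmGSTF1 replicate 3 (0.76, adjusted p = 0.0496), and was 0.34 (adjusted p = 0.266) without AmGSTF1 replicate 2.

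ERD10, the neighbouring gene of COR47 and a dehydrin of the same acidic type, had signals of 18568, 14981 and 17273 in Col0 and of 16391, 19775 and 18463 in AmGSTF1. The groups overlapped, and the log2 difference was 0.11 (95% interval -0.19 to 0.40, limma adjusted p = 0.674). Set against ERD10 on the same array, the log2 signal of COR47 was -1.46, -1.16 and -1.53 in Col0 and -0.71, -0.71 and -1.46 in AmGSTF1. This within-array difference was 0.42 higher in AmGSTF1, with an exact two-sided permutation p of 0.2; the smallest p that 3 arrays against 3 allow is 0.1, so this test cannot reach 0.05.

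RD29A, also known as COR78, encodes a hydrophilic protein and is widely used as a reporter of cold, drought and abscisic acid signalling because its promoter carries elements for both routes. Its signals were 15511, 12863 and 17459 in Col0 and 15929, 16382 and 15568 in AmGSTF1. All AmGSTF1 arrays lay between the lowest and the highest Col0 array. The log2 difference was 0.07 (95% interval -0.23 to 0.38, limma adjusted p = 0.787), which on the linear scale is an interval of 0.854-fold to 1.30-fold.

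COR15A and COR15B encode small proteins of the chloroplast stroma that stabilise chloroplast membranes during freezing. COR15A had signals of 24962, 17539 and 26981 in Col0 and of 23171, 21578 and 20927 in AmGSTF1, with the AmGSTF1 arrays inside the Col0 range. Its log2 difference was -0.06 (95% interval -0.42 to 0.31, limma adjusted p = 0.870). COR15B had signals of 6497, 3966 and 7613 in Col0 and of 4859, 5740 and 3983 in AmGSTF1. Here too the AmGSTF1 arrays lay within the Col0 range, whose lowest array, replicate 2, was nearly equal to AmGSTF1 replicate 3. The log2 difference of COR15B was -0.27 (95% interval -0.80 to 0.25, limma adjusted p = 0.529). The within-array difference of COR15A from COR15B was 0.21 higher in AmGSTF1 (exact two-sided permutation p = 0.3).

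KIN1 and KIN2, a tandem pair that encodes small hydrophilic proteins rich in alanine, are read by 1 shared probe set. It had signals of 19270, 17153 and 24900 in Col0 and of 17817, 20191 and 17848 in AmGSTF1. The AmGSTF1 arrays lay inside the Col0 range, and the log2 difference was -0.12 (95% interval -0.46 to 0.22, limma adjusted p = 0.682).

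**Figure D2:**
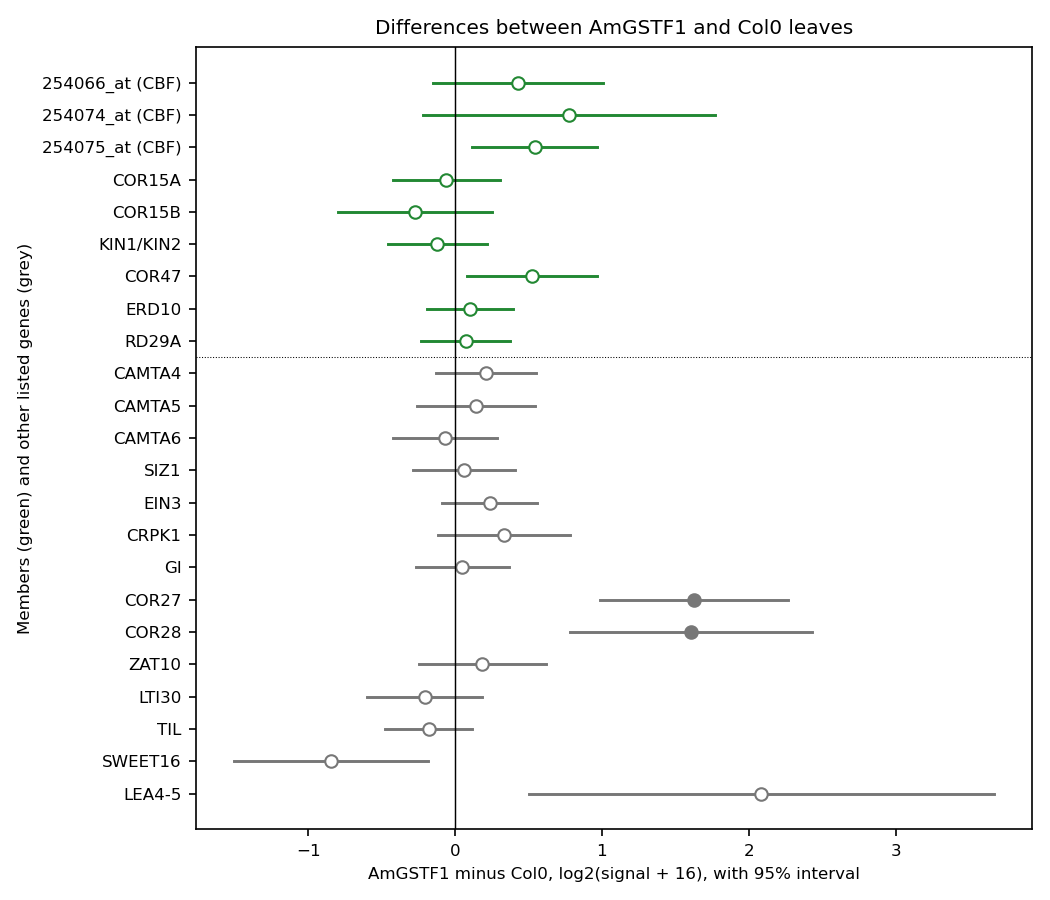
AmGSTF1 minus Col0 on the log2(signal + 16) scale with 95% limma intervals for the 9 members (green) and the 14 other listed cold genes matched to a probe set (grey), with filled points where the adjusted p was under 0.05. The 2 filled points are COR27 and COR28; 254074_at was fitted with no filter on dim probe sets.

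For 6 of the 6 target probe sets the 95% interval lay within 1 log2 unit of 0 on both sides. In the main fit and taken singly, the intervals thus exclude a 2-fold change of the array signal in either direction. For COR47 the upper limit of 0.97 was close to that bound, and its difference was 0.76 without AmGSTF1 replicate 3. Intervals within 1 log2 unit of 0 were also found for 81.2% of all probe sets tested. COR15A, KIN1/KIN2, ERD10 and RD29A were near the top of the signal range, with 0.06% to 0.27% of probe sets brighter. Whether such bright signals understate a change in transcript was not tested. Among the CBF probe sets, the interval of 254075_at (0.12 to 0.97) also lay within 1 log2 unit of 0. Probe sets 254066_at and 254074_at had intervals that reach beyond 1 log2 unit, and changes of that size upwards were not excluded.

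**Figure D3:**
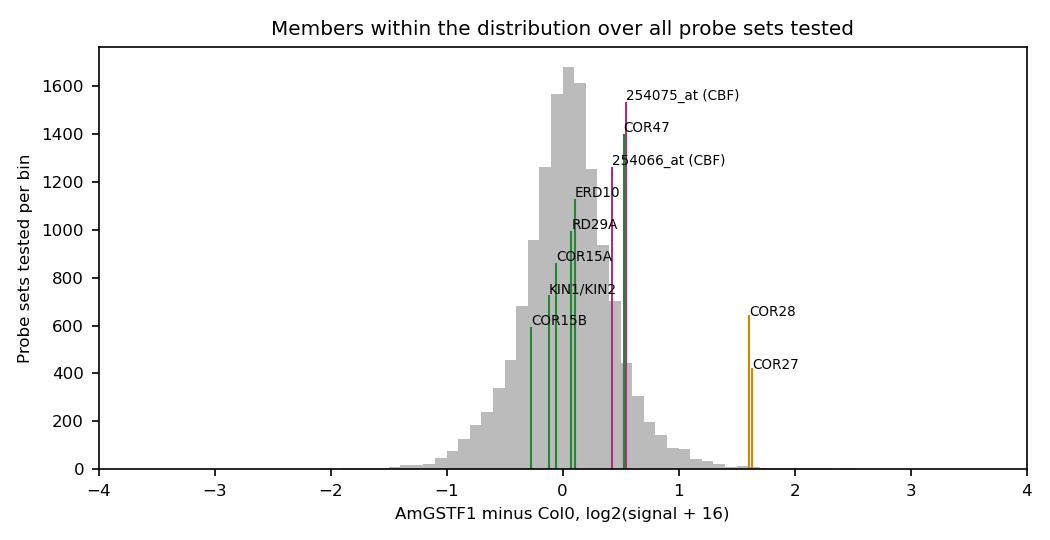
Histogram of AmGSTF1 minus Col0 (log2(signal + 16), bins of 0.1) over the 13647 probe sets tested, with lines for the 8 members tested (CBF probe sets purple, targets green) and for COR27 and COR28 (orange). The 8 members lie between -0.27 and 0.54, and COR27 and COR28 at 1.63 and 1.61.

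The order of the arrays differed among the members. Col0 replicate 2 was the lowest Col0 array for 5 of the 6 targets, COR47 being the exception, against 35.3% of all probe sets tested. For these 5 targets it was also the lowest of all 6 arrays. Col0 replicate 3 was the highest array for 4 of the targets (COR15A, COR15B, KIN1/KIN2 and RD29A), while for 254066_at, 254074_at and COR47 it was the lowest. Shares over all probe sets were not computed for the order over all 6 arrays. Among the AmGSTF1 arrays, replicate 3 was the lowest for 3 of 3 CBF probe sets and 4 of 6 targets, against 30.1% of all probe sets tested. The SD within a group ranged over the targets from 0.04 for RD29A in AmGSTF1 to 0.49 for COR15B in Col0 on the log2 scale, where the median over all probe sets tested was 0.20 in each group. The targets were thus not set apart by a uniformly small spread.

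**Figure D4:**
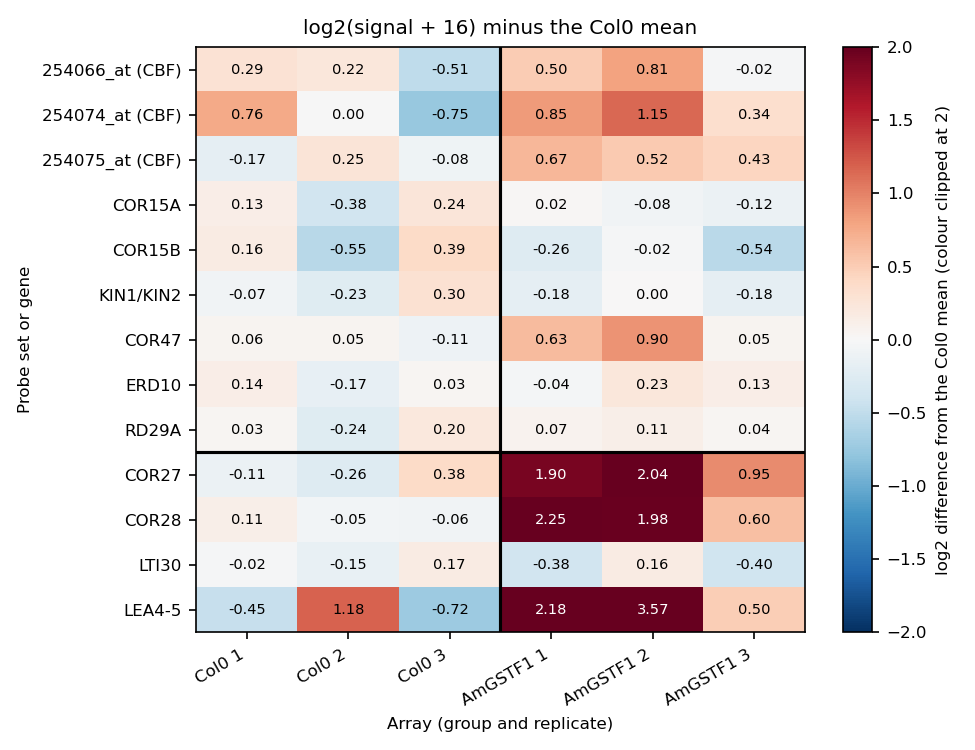
Each cell gives log2(signal + 16) minus the Col0 mean on 1 array (columns) for the 9 members (above the line) and 4 other listed cold or abscisic acid genes (below it). COR27 reads 1.90, 2.04 and 0.95 and COR28 reads 2.25, 1.98 and 0.60 on AmGSTF1 arrays 1 to 3, while COR15A reads 0.02, -0.08 and -0.12.

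Genes of the cold pathway came from 6 lists with 102 genes, chosen with earlier results of these data known. The lists include the CBF family, with CBF1, CBF2 and CBF3 themselves, of which 0 of 6 genes were matched. Of the 102 genes, 14 could be matched to a probe set assigned to 1 gene. The others may still be on the array, since the annotation does not list 8730 probe sets. Of the 14, 2 were higher in AmGSTF1, 0 were lower, and 4 had an unadjusted p under 0.05. Among all 13647 probe sets tested, 2.14% were called higher and 2.9% lower with limma. At an unadjusted p under 0.05 these shares were 12.6% and 10.7%. Both called genes were COR27 and COR28, listed with the clock regulators of CBF, where 3 of 13 genes were matched. COR27 and COR28 are related cold-induced genes that also respond to light and the clock, and their products restrain PRR5 and TOC1 and lower freezing tolerance. COR27 had signals of 231, 206 and 331 in Col0 and of 980, 1084 and 500 in AmGSTF1. COR28, which the gene table gives as AT4G33980 without a symbol, had signals of 113, 99.6 and 98.4 in Col0 and of 551, 456 and 165 in AmGSTF1. All AmGSTF1 arrays were above all Col0 arrays for both genes, which also held for 14.5% of all probe sets tested. Replicate 3 was the lowest of the AmGSTF1 arrays for both, against 30.1% of all probe sets tested.

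COR27 rose, with a log2 difference of 1.63 (95% interval 0.99 to 2.27, limma adjusted p = 0.0205), or 3.10-fold, and COR28 rose by 1.61 (0.79 to 2.43, adjusted p = 0.0388), or 3.05-fold. The call of COR27 was lost in 4 of 16 alternatives, namely with the replicate number as a block (limma adjusted p = 0.0590) and in 3 fits with 1 array omitted. With Col0 replicate 1 omitted its difference was 1.57 (limma adjusted p = 0.0993), with Col0 replicate 3 omitted 1.82 (0.0685) and with AmGSTF1 replicate 1 omitted 1.50 (0.105). The call of COR28 was lost in 10 of 16 alternatives (adjusted p 0.0506 to 0.155), among them each fit without a Col0 array or without AmGSTF1 replicate 1 or 2, where its difference was 1.29 to 1.66.

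Among upstream regulators, 0 of 6 matched genes (of 27 listed) were called and the differences lay between -0.07 and 0.34. CRPK1, a membrane kinase that acts in cold signalling and is listed by its locus AT1G16670 in the gene table, differed by 0.34 (95% interval -0.11 to 0.78, limma adjusted p = 0.348). EIN3, the ethylene response factor that represses CBF genes, differed by 0.24 (-0.08 to 0.56, adjusted p = 0.358). CAMTA4 (AT1G67310), of the calmodulin-binding family whose other members activate CBF genes, differed by 0.21 (-0.13 to 0.55, adjusted p = 0.439). Of 11 cold-induced factors that act beside the CBF proteins, 1 was matched to a probe set, the zinc finger gene ZAT10, at 0.19 (-0.25 to 0.62, adjusted p = 0.610).

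Of 31 other cold-induced genes, 3 were matched to a probe set and 0 were called. LTI30, another dehydrin gene, had signals of 5481, 4979 and 6247 in Col0 and of 4256, 6192 and 4200 in AmGSTF1, so the groups overlapped (log2 difference -0.21, 95% interval -0.60 to 0.18, limma adjusted p = 0.518). TIL, a temperature-induced lipocalin gene, differed by -0.18 (-0.47 to 0.12, adjusted p = 0.456). SWEET16, a vacuolar sugar transporter gene, differed by -0.84 (-1.50 to -0.18, adjusted p = 0.125), and passed with array weights (-1.03, 0.0327) and without AmGSTF1 replicate 2 (-1.18, 0.0223).

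Of 14 abscisic acid-dependent genes, 1 was matched to a probe set. LEA4-5, a late embryogenesis abundant protein gene, had signals of 52.0, 194 and 40.5 in Col0 and of 407, 1093 and 116 in AmGSTF1. AmGSTF1 replicate 3 lay below Col0 replicate 2, so the groups overlapped. The log2 difference was 2.09 (95% interval 0.50 to 3.67) with an unadjusted p of 0.0151 and a limma adjusted p of 0.116. LEA4-5 passed the threshold without AmGSTF1 replicate 3 (2.88, limma adjusted p = 0.0456) and with the replicate number as a block (0.0407).

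The expression pattern most like the members' mean was sought among 7352 other probe sets with 1 gene that passed the filter. Pearson correlation was taken over the 6 arrays with the mean of the centred log2 values of the 8 members tested. The members differed in the order of their arrays, so this mean does not describe each of them. That mean was 0.00, -0.21 and -0.02 on Col0 arrays 1 to 3 and 0.10, 0.23 and -0.10 on AmGSTF1 arrays 1 to 3. The 5 nearest were AT5G17070 (r = 0.979), AT1G16850 (0.967), AT4G10930 (0.960), AT2G33435 (0.957) and AT2G15630 (0.956). With 6 arrays and so many probe sets, correlations of this size describe these arrays only. None of the 5 was called with limma, with differences from 0.12 to 0.56 and adjusted p from 0.282 to 0.755.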

How the data were processed

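Leaf RNA of 3 AmGSTF1 and 3 Col0 replicates, which the design text calls biological, was hybridised to 1 array each. Per the submitters' processing notes, the deposited values are MAS5 signal intensities from Affymetrix Expression Console 1.1. They are on a linear scale, and background settings are not given in the sources used here. Detection calls were not used, and the number of arrays limits the precision. Signals were taken as log2(signal + 16), the dimmest 40% of 22746 probe sets by mean log2 were left out, and the other 13647 were compared with limma 3.58.1 in R 4.3.3 (lmFit, eBayes with an intensity trend, no replicate term), with Benjamini-Hochberg adjustment over all 13647, a threshold of 0.05 and 95% intervals. Differences understate the change of dim probe sets. Groups came from the transgene label and replicate numbers from the titles.

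Gene names came from the platform annotation (1 gene for 13513, several for 503, 8730 not listed) and the RefSeq table of TAIR10.1. Members and gene lists were chosen with earlier results of these data known. All members are named, with every called gene of each list or else its 3 smallest p, and the 5 nearest patterns. Each listed gene is its brightest probe set. Alternatives were pseudocounts of 1 and 64, 2 other filters, 3 normalizations between arrays, no trend, array weights, a replicate block, a threshold of 0.1 and leaving out each array. Figures were drawn with Python 3.11.15.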

Additional observations from a re-analysis of the deposited data

How the results depend on the processing

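Of the regulon members, 0 were called higher and 0 lower under each alternative, the threshold of 0.1 included, except that 1 (COR47) was higher without AmGSTF1 replicate 3, so leaving out 1 array gave 0 to 1. The members' median difference of 0.09 among the 8 tested moved by less than the spread between replicates under each alternative, though without Col0 replicate 2 it fell to the other side of 0, at -0.0124. Signs turned for COR15A (0.0807 with cyclic loess, and -0.247 to 0.0639 without 1 array), KIN1/KIN2 (0.0128 with cyclic loess, and -0.237 to 0.0318 without 1 array), RD29A (-0.0147 with median centring, and -0.0445 to 0.176 without 1 array), SIZ1 (-0.0269 with median centring, and -0.0579 to 0.182 without 1 array), GI (-0.0402 with median centring, and -0.0175 to 0.118 without 1 array) and ZAT10 (-0.0257 to 0.377 without 1 array). None of these was called in any fit.

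Over all probe sets, 292 were higher and 396 lower. These numbered 123 and 213 with no filter, where more were tested, 192 and 237 with no intensity trend, 814 and 827 with array weights, 222 and 599 with median centring, and 745 and 777 at a threshold of 0.1. In fits with 1 array omitted, 6 to 603 were higher and 5 to 566 lower. With the replicate block they numbered 40 and 38, and COR27 (adjusted p = 0.0590) and COR28 (0.0582) were lost and LEA4-5 passed (0.0407). Same-numbered arrays shared no clear pairing (correlations of deviations 0.146, -0.03 and -0.05), and the block changed the call of no member. The cause of these changes was not tested. Dim signals such as that of 254074_at were not separated from background.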

Other observations

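AmGSTF1 replicate 3 was the lowest AmGSTF1 array for 254066_at, COR47, COR27, COR28 and LEA4-5. It was also the lowest for 254074_at, 254075_at, COR15A, COR15B and RD29A, and for CAMTA4, CAMTA5, CAMTA6, ZAT10 and LTI30. The fit without AmGSTF1 replicate 3 therefore had to raise their differences, and the shared direction says nothing further about these genes. Without it the log2 difference was 0.66 instead of 0.43 for 254066_at, 0.76 instead of 0.53 for COR47, 1.97 instead of 1.63 for COR27, 2.11 instead of 1.61 for COR28 and 2.88 instead of 2.09 for LEA4-5. In the same fit 254075_at stood at 0.60 instead of 0.54 and ZAT10 at 0.38 instead of 0.19. RD29A stood at 0.09 instead of 0.07 and COR15A at -0.03 instead of -0.06. ERD10, whose lowest AmGSTF1 array was replicate 1, stood at 0.09 instead of 0.11. These genes were singled out after their values were seen, and the cause was not tested.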
